A study of Mus musculus with 20 samples.

Results

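The genes Fgf21, Angptl4, Gdf15 and Angptl8 encode proteins that the liver secretes, and the histone marks around them were followed in livers of fasted mice. Consensus intervals of each mark were taken when their midpoint lay in the mm10 RefSeq gene body or within 20000 bases of it. This gave 40 of 65776 H3K27ac intervals, 53 of 103014 H3K4me1 intervals and 39 of 46568 H3K9ac intervals around 4 of 21900 protein-coding gene bodies. In the order H3K27ac, H3K4me1 and H3K9ac, Fgf21 had 10, 13 and 10 intervals, Angptl4 had 6, 9 and 6, Gdf15 had 9, 8 and 12, and Angptl8 had 15, 23 and 11. The windows also reach other genes: the gene nearest to the interval was the listed gene itself for 11 of the 40 H3K27ac and 14 of the 53 H3K4me1 intervals.

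Livers came from 9-week-old male C57BL/6 mice, all fasted for 24 hours, per the labels. The groups were wild type (WT), Cpt2 L-/- mice that lack Cpt2 in the liver (Cpt2 KO), Ppara -/- mice (Ppara KO) and Cpt2 L-/-;Ppara -/- double knockouts (DKO). What drives the deletion in the liver is not given in the sources used here, and no fed liver was compared. H3K27ac and H3K4me1 were profiled by chromatin immunoprecipitation and sequencing (ChIP-seq) in 2 livers of each genotype, and H3K9ac in 1 WT and 1 Cpt2 KO liver; 2 pooled inputs served as background. WT and Cpt2 KO livers are called Ppara-intact below and Ppara KO and DKO livers Ppara-null; likewise WT and Ppara KO livers are Cpt2-intact and Cpt2 KO and DKO livers Cpt2-null.

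Hepatokines are proteins that the liver releases to act on other tissues. FGF21 signals through FGF receptors with the co-receptor beta-Klotho (Klb) and is raised in fasting; ANGPTL4 and ANGPTL8 restrain lipoprotein lipase, ANGPTL8 chiefly after feeding; GDF15 is a stress-induced hormone that acts on the receptor GFRAL in the hindbrain. PPARalpha, encoded by Ppara, is a nuclear receptor activated by fatty acids, and Fgf21 and Angptl4 are well-known targets of it. CPT2 is the mitochondrial enzyme that long-chain fatty acids need for oxidation. H3K27ac and H3K9ac mark active promoters and enhancers, and H3K4me1 marks enhancers and the flanks of promoters.

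RefSeq promoter sequences (assembly GRCm38.p6) were matched for 3 of the 4 genes: Fgf21, Gdf15 and Angptl8. They are shown because peak calls at the Fgf21 start, and the extent of peaks around the Angptl8 start, differed between genotypes. The Angptl8 start itself lay under an H3K27ac peak in all 8 livers, and the Gdf15 starts lay under peaks of both marks in all 8 livers. Each line gives the 250 bases before a start, 5′ to 3′ in the direction of the gene. Capitals mark every match to the motifs searched on both strands.

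Fgf21, chr7:45615491-45615740, minus strand: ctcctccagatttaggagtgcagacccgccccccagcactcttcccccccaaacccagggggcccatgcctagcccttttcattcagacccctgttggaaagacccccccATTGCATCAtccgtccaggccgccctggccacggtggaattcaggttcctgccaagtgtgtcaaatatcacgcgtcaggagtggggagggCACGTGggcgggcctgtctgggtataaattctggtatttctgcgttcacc

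Angptl8, chr9:21835260-21835509, plus strand: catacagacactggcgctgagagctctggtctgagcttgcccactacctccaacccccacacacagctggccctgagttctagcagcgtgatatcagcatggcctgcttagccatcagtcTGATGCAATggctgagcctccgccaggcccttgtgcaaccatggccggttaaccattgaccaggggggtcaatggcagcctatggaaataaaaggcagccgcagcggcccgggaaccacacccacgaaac

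Gdf15, upper start, chr8:70632457-70632706, minus strand: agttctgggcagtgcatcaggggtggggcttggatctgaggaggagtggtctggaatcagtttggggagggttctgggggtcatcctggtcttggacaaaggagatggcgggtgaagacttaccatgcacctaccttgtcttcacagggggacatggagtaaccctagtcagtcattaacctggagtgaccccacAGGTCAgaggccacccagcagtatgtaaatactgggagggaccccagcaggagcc

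Gdf15, lower start, chr8:70632096-70632345, minus strand: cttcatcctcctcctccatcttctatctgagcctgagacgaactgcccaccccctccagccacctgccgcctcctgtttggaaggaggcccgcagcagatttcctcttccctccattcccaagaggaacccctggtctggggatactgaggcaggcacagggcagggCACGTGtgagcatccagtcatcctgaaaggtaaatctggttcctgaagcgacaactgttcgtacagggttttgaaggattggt

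The searched letters were TGATGCAAT, the composite element of C/EBP and ATF factors; CACGTG, an E-box; AGGTCA, the half-site of nuclear receptors; a direct repeat of that half-site with a single base N between its copies, the kind that PPAR and RXR bind, whose matches are also matches of AGGTCA; and TGACGTCA, the cyclic AMP response element. TGATGCAAT lay 132 to 140 bases before the Fgf21 start (on the other strand, as ATTGCATCA) and 122 to 130 bases before the Angptl8 start, and 0.167% of 32851 promoter windows of the same length held it. CACGTG lay 45 to 50 bases before the Fgf21 start and 78 to 83 bases before the lower Gdf15 start (6.02% of windows). AGGTCA lay 50 to 55 bases before the upper Gdf15 start (14% of windows). The direct repeat (0.0335% of windows) and TGACGTCA (1.55%) had no match in these 4 windows.

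A value below is the authors' fold enrichment of ChIP over input at a peak summit, and each interval takes the highest peak of a library that overlaps it. A library with no peak there is "not called", which is not a level of zero. The lists held only significant peaks, with a lowest −log10 q of 5.21 to 5.33, depending on the library. The lowest fold in a list was 2.23 to 2.5, and an uncalled place may lie above it. The H3K27ac lists held 44454 to 48929 peaks covering 42.0 to 47.8 Mb, and the H3K4me1 lists 61189 to 72151 peaks covering 38.8 to 53.5 Mb. Read depth is unknown, since the files give no read totals. In H3K27ac, 7 of 7 hepatocyte and 4 of 4 endothelial marker genes had a peak within 1000 bases in all 8 livers. So did 3 of 5 macrophage, 1 of 5 stellate cell and 1 of 3 T or B cell markers (Cd79a). The fat cell markers Adipoq, Plin1 and Lep had one in 7, 6 and 3 livers. No liver had one at the 4 cholangiocyte or 3 skeletal muscle markers. Bulk liver cannot tell a mark lost in each cell from fewer cells that carry it. Within 20000 bases of Ppara itself, 1 of 28 H3K27ac intervals was called only in all Ppara-intact livers and 1 only in all Ppara-null livers, and near Cpt2 1 of 7 only in Cpt2-intact livers, so calls at the deleted genes are only a weak check of the genotypes.

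**Figure D1:**
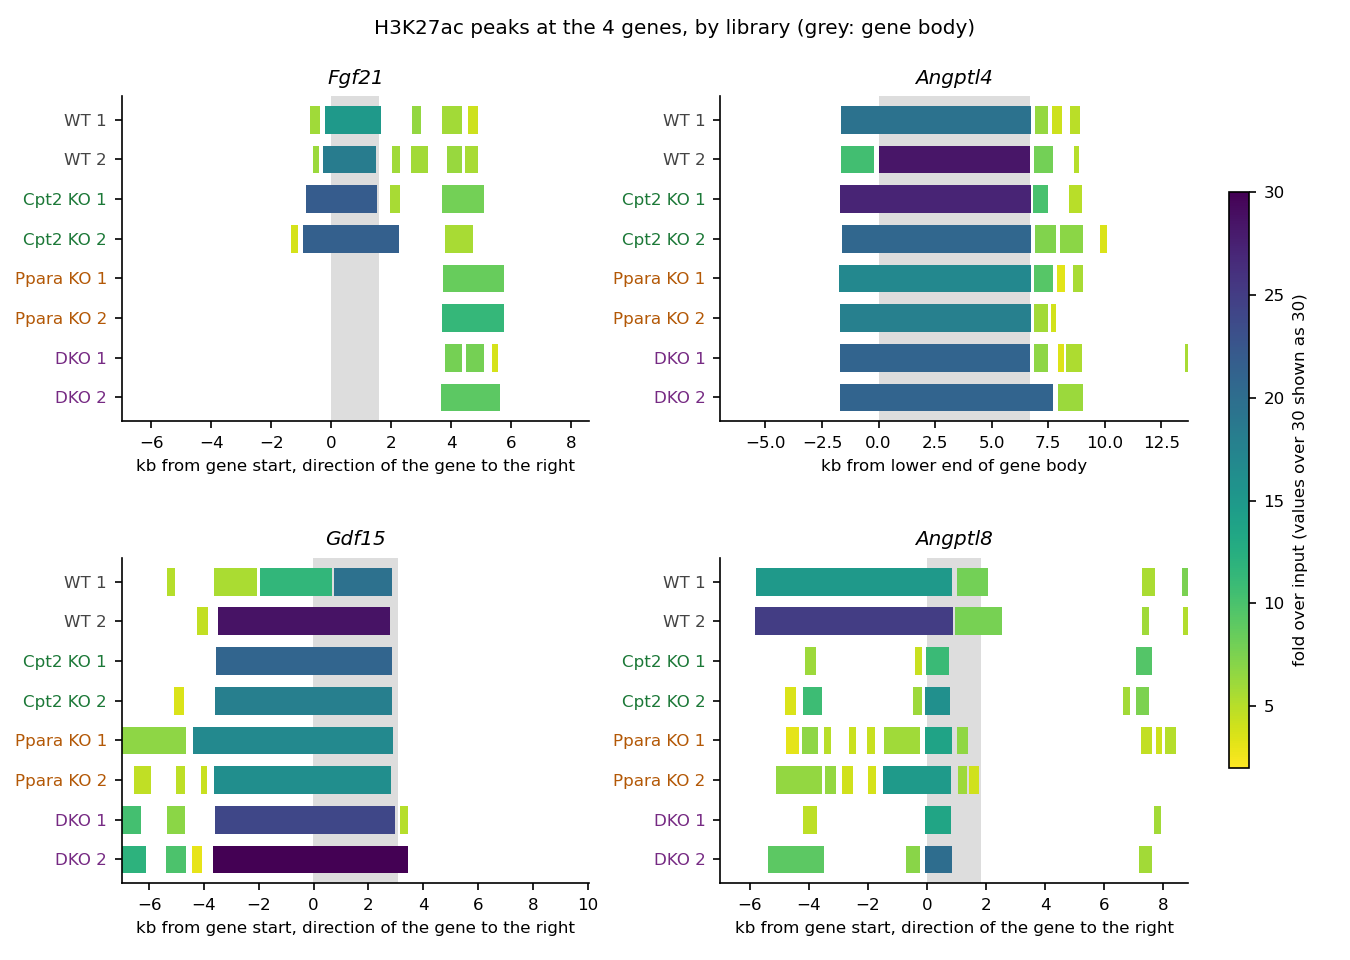
H3K27ac peaks of each liver (rows) within 7 kb of each gene body (grey), with position in kb along x and the fold over input as colour; Angptl4 is drawn from the lower end of its body. The Ppara KO and DKO rows are empty over Fgf21, and Angptl4 and Gdf15 are covered in all 8 livers. The peak over the Angptl8 start is 6628 and 6681 bases wide in WT and 772 to 902 in Cpt2-null livers. In Ppara KO livers it is 926 and 2313 bases wide.

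Fgf21 had an H3K27ac peak in every WT and Cpt2 KO liver and none in any liver without Ppara. The interval over the gene and its start (chr7:45613190-45616441) reached 15.0 and 18.4-fold for WT and 22.0 and 21.6-fold for Cpt2 KO livers. It was not called in the Ppara KO or the DKO livers. Of the 40 H3K27ac intervals, this was the only one called in all 4 Ppara-intact and no Ppara-null liver, against 0.725% of all H3K27ac intervals. No interval of the 4 genes had the opposite pattern, against 0.632% of all intervals.

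The peak was a strong one. Its fold ranked at the 90.7th and 90.3rd percentile of all peaks in the WT lists and at the 93.8th and 95.4th in the Cpt2 KO lists. The summit lay 149 to 231 bases past the start, and the peak was 1858 and 1748 bases wide in WT and 2381 and 3194 in Cpt2 KO livers. It covered 92.4 to 100% of the gene body in the Ppara-intact livers and 0% in the Ppara-null livers. Both motif matches printed above lay under this peak in the 4 Ppara-intact livers and outside any H3K27ac peak in the 4 others.

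An interval with uncalled livers could not enter the fit over intervals called in all 8 livers. When each uncalled library was set to the lowest fold of its own list, limma gave a log2 difference of −3.08 (SE 0.18) for Ppara-null against Ppara-intact, with an adjusted p of 0.000414; 11.6% of the 33572 intervals in that fit passed for Ppara. That difference is partly built in, because the interval entered through the livers where it was called. The value filled in is the lowest fold listed, so it may also overstate the difference. In the same filled-in fit, Cpt2 KO differed from WT by 0.12 (SE 0.26, limma adjusted p = 0.762).

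Other H3K27ac intervals around Fgf21 had other patterns of calls. A short interval just beyond the gene's far end (chr7:45612259-45612846) was called in the WT livers alone, at 6.50 and 5.93. The interval 3100 bases from the body on the same side (chr7:45609740-45611841) was called in all 8 livers, with folds of 5.89 and 6.29 for WT, 8.0 and 5.70 for Cpt2 KO, 8.50 and 11.4 for Ppara KO and 7.90 and 9.00 for DKO livers. Its lowest Ppara-null value, 7.90, lay just under the highest Ppara-intact value, 8.0, and the log2 difference for Ppara was 0.48 (SE 0.18, limma adjusted p = 0.137).

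Farther out, at chr7:45605698-45606392, neither WT liver was called. A single Cpt2 KO liver had a fold of 5.79, the Ppara KO livers 5.50 and 7.95 and the DKO livers 7.25 and 7.36. At chr7:45597205-45598319, nearest to Bcat2, which encodes a mitochondrial branched-chain aminotransferase, the WT livers were again not called, while the other livers ranged from 3.62 to 13.9. These were the 2 of the 40 intervals called in both Ppara KO and neither WT liver, a share close to the 5.01% of all H3K27ac intervals. With uncalled libraries filled in, their log2 differences for Ppara were 1.17 (limma adjusted p = 0.0431) and 1.25 (0.0228), in the order given. Those differences are again partly built in. The strongest interval called in all 8 livers lay nearest to Rasip1, a gene of endothelial cells (chr7:45626867-45628982), with folds of 10.1 and 10.4 for WT, 8.12 and 15.6 for Cpt2 KO, 11.6 and 6.38 for Ppara KO and 10.2 and 8.67 for DKO livers. The ranges of the genotypes overlapped there, with a Ppara log2 difference of −0.29 (SE 0.27, limma adjusted p = 0.560).

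**Figure D2:**
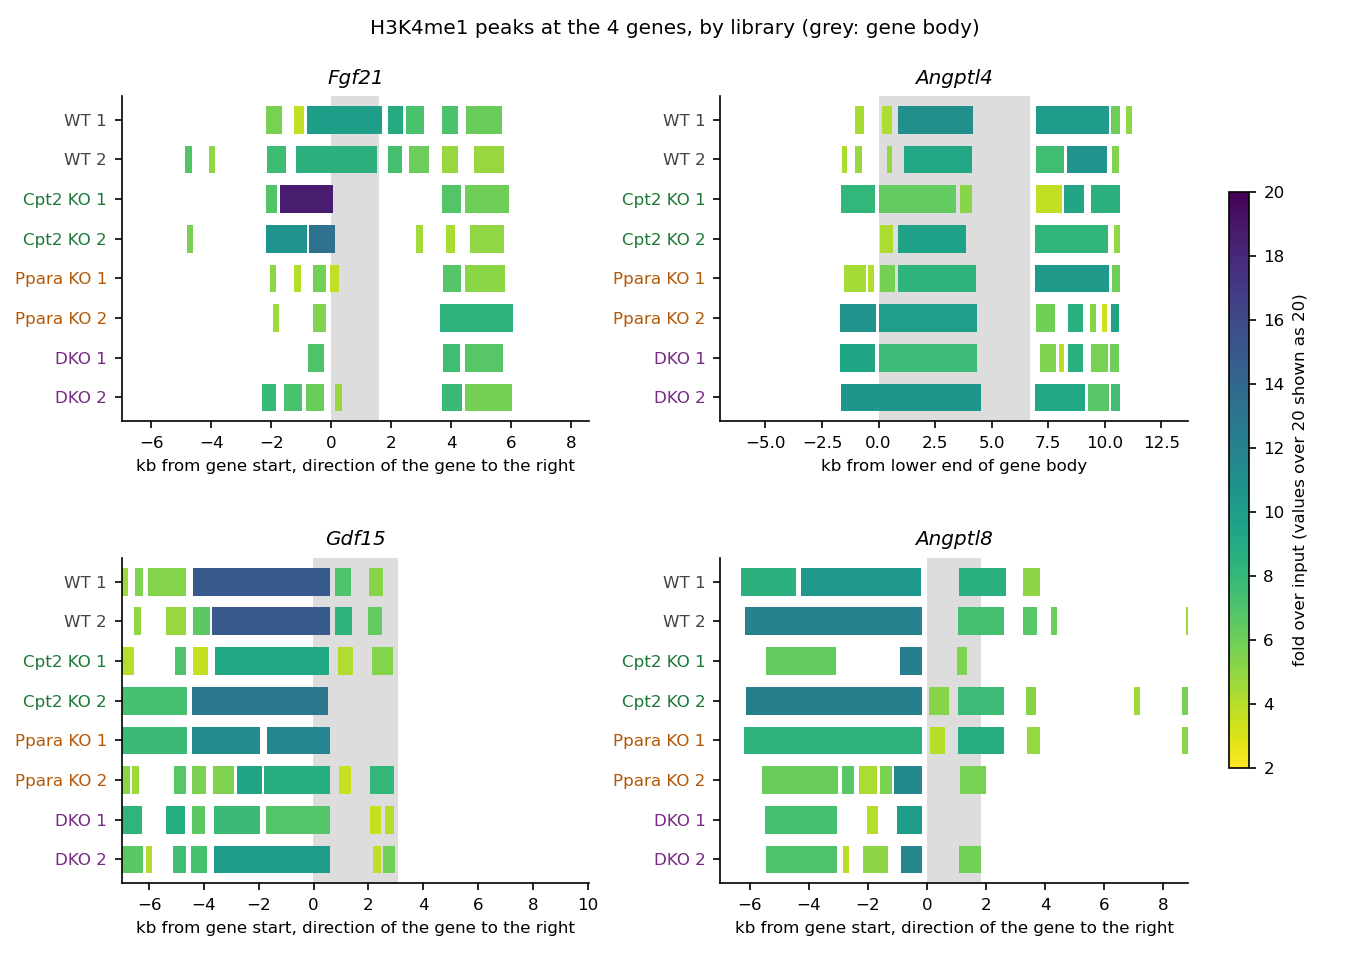
H3K4me1 peaks of each liver within 7 kb of each gene body (grey), drawn as for H3K27ac. At Fgf21 the WT peaks run over the body, and the Cpt2 KO peaks end near the start. The summits lie 537 and 439 bases before the start in Cpt2 KO, 503 bases before it in WT replicate 2 and 766 bases past it in WT replicate 1.

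An H3K4me1 interval that spans the Fgf21 start was called in all 8 livers, with the start base itself under a peak in 5 of them. This interval (chr7:45613816-45617793) had folds of 10.0 and 8.50 for WT, 18.6 and 13.4 for Cpt2 KO, 5.80 and 5.4 for Ppara KO and 7.05 and 7.85 for DKO livers. All 4 Ppara-intact livers lay above all 4 Ppara-null livers, and both Cpt2 KO livers lay above both WT livers. How many of all H3K4me1 intervals show such an order was not counted. The log2 difference for Ppara was −0.91 (SE 0.19, n = 4 against 4 livers), and it missed the threshold over all 19526 intervals tested (limma adjusted p = 0.0765). It passed in 2 of 17 alternatives: without Cpt2 KO replicate 1 (−0.79, limma adjusted p = 0.0318) and with uncalled libraries filled in (0.0444); the adjusted p ranged from 0.0318 to 0.402.

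The Cpt2 difference at this interval was 0.60 (SE 0.19, limma adjusted p = 0.438) and the interaction of the deletions was −0.34 (SE 0.39, limma adjusted p = 0.9995). In the Cpt2 KO livers this H3K4me1 peak ranked at the 99.9th and 98.6th percentile of the list. Its place also differed between WT and Cpt2 KO livers. H3K4me1 covered 100 and 94.1% of the gene body in the WT livers, 3.25 and 6.81% in the Cpt2 KO livers, 16.4 and 0% in the Ppara KO livers and 0 and 15.7% in the DKO livers, so the WT livers alone had most of the body under H3K4me1.

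A further H3K4me1 interval past the far end of Fgf21 (chr7:45613106-45613613) was called in WT only, at 8.96 and 7.36. The next one (chr7:45612242-45612992) was called in both WT livers (7.14 and 6.08), in 1 Cpt2 KO liver (4.49) and in no Ppara-null liver. In WT both marks thus covered the gene, while in Cpt2 KO livers H3K27ac covered the body and H3K4me1 little of it.

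In H3K9ac, with 1 library a genotype and no fold deposited, the Fgf21 window had 4 of 10 intervals called in WT and 9 of 10 in Cpt2 KO. The interval over the gene (chr7:45613715-45616207) covered 1937 bases in WT and 2403 in Cpt2 KO. Over the whole window the covered bases were 3788 and 6488, a ratio of 1.71 against 0.998 for the genome; with no replicate this compares these 2 libraries only. Of all H3K9ac intervals, 23.9% were called in Cpt2 KO and not in WT, and 20.8% the other way.

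**Figure D3:**
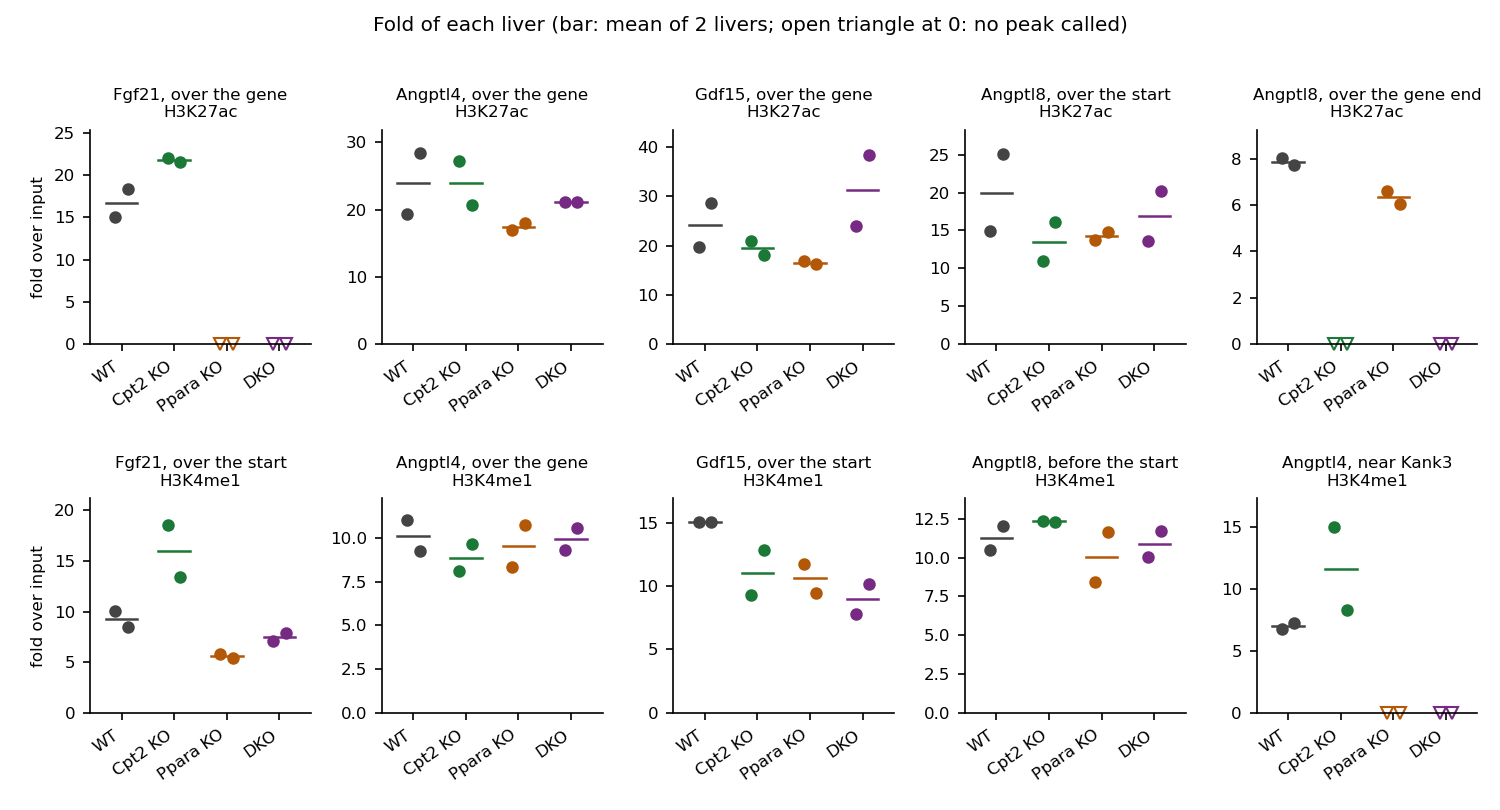
Fold over input of each liver at 10 intervals of the 4 genes, by genotype; points are livers, bars the mean of 2 livers, and open triangles at the axis livers with no peak called. Only Fgf21 H3K27ac and the Angptl4 H3K4me1 interval near Kank3 have triangles in all 4 Ppara-null livers, and only the interval at the Angptl8 gene end has them in all 4 Cpt2-null livers.

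Angptl4, a target of the same nuclear receptor, kept its H3K27ac in all 4 genotypes. Its gene lies at chr17:33774900-33781575, and the interval over it (chr17:33773146-33783932) had folds of 19.4 and 28.4 for WT, 27.2 and 20.7 for Cpt2 KO, 16.9 and 17.9 for Ppara KO and 21.1 and 21.1 for DKO livers. The Ppara KO livers were the lowest, and the DKO livers lay inside the range of the WT livers. Peaks 6674 to 9427 bases wide covered 99.5 to 100% of the gene body in all 8 livers. The log2 difference was −0.33 for Ppara (SE 0.14, limma adjusted p = 0.173) and −0.12 for Cpt2 (SE 0.14, limma adjusted p = 0.599).

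The H3K4me1 interval that overlaps the Angptl4 body (chr17:33773200-33779424) had folds of 11.0 and 9.25 for WT, 8.12 and 9.63 for Cpt2 KO, 8.36 and 10.8 for Ppara KO and 9.33 and 10.5 for DKO livers. All genotypes overlapped, with log2 differences of 0.04 for Ppara (SE 0.19, limma adjusted p = 0.953) and −0.06 for Cpt2 (SE 0.19, limma adjusted p = 0.940). Some of these folds came from peaks that do not reach the body. The highest peak over the body itself was at 6.36 in Cpt2 KO replicate 1, 10.0 in Ppara KO replicate 2 and 7.75 in DKO replicate 1. H3K4me1 peaks covered 48.8 to 67.8% of the body. The interval past the upper end of the body (chr17:33781814-33785584) had folds of 8.24 to 10.7 in the 8 livers.

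A distal H3K4me1 interval in the Angptl4 window was called in Ppara-intact livers only. At chr17:33796034-33797738, nearest to Kank3 and 15311 bases from the Angptl4 body, folds were 6.75 and 7.21 in WT and 14.9 and 8.28 in Cpt2 KO livers, and no Ppara-null liver was called. It was the only one of the 53 H3K4me1 intervals with that pattern, against 0.604% of all H3K4me1 intervals, and none had the reverse (0.385%). Its filled-in log2 difference was −1.90 (SE 0.35, limma adjusted p = 0.0424), in a fit where 0.875% of intervals passed. That difference is again partly built in by the choice of intervals and of the value filled in.

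H3K27ac at the same place (chr17:33796127-33797315) was called in the Cpt2 KO livers only, at 8.75 and 6.98. That makes it 1 of 2 H3K27ac intervals of the 4 genes called in both Cpt2 KO and neither WT liver, against 9.72% of all intervals. The 2 H3K27ac intervals nearest to Rab11b, a small GTPase gene, were called in all 8 livers, at 5.03 to 11.1 and at 13.4 to 26.1. H3K9ac was called at 6 of 6 Angptl4 intervals in WT and 5 of 6 in Cpt2 KO, over 13619 and 12805 bases.

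Gdf15, the stress-induced hormone, also kept both marks over its starts in all 8 livers. The H3K27ac interval over the gene (chr8:70628993-70636880) had folds of 19.7 and 28.6 for WT, 21.0 and 18.0 for Cpt2 KO, 16.8 and 16.2 for Ppara KO and 24.0 and 38.5 for DKO livers. The Ppara KO livers were the lowest and DKO replicate 2 was the highest liver, and the WT range overlapped those of Cpt2 KO and DKO. The log2 difference was 0.03 for Ppara (SE 0.15, limma adjusted p = 0.936) and 0.03 for Cpt2 (SE 0.15, limma adjusted p = 0.909). In WT replicate 1 the value of 19.7 came from another peak of the interval. Its peak over the starts themselves was at 11.6, lower than in any other liver.

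The interaction at this interval, the Cpt2 difference in Ppara-null minus that in Ppara-intact livers, was 1.08 (SE 0.30) with an unadjusted p of 0.00284 and a limma adjusted p of 0.141. Cpt2 KO differed from WT by −0.51 (SE 0.21, limma adjusted p = 0.121), and DKO from Ppara KO by 0.57 (SE 0.21, limma adjusted p = 0.254). No alternative passed for the interaction (limma adjusted p 0.0785 to 0.916), and it was −0.13 when the mean fold of the overlapping peaks replaced the highest. Of the 18281 H3K27ac intervals tested, 0.00547% passed for the interaction.

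Upstream of Gdf15 (chr8:70637115-70640085), H3K27ac had folds of 5.13 and no call for WT, no call and 3.64 for Cpt2 KO, 6.80 and 4.80 for Ppara KO and 10.4 and 12.0 for DKO livers. The DKO livers were the highest, and each Ppara-intact genotype was called in 1 of its 2 livers. Peaks covered 293 and 0 bases of this interval for WT, 0 and 389 for Cpt2 KO, 2890 and 1191 for Ppara KO and 2012 and 1999 for DKO livers, with no overlap between Ppara-null and Ppara-intact livers. How many of all H3K27ac intervals split this way in covered bases was not counted. The filled-in log2 difference for Ppara was 1.22 (SE 0.32, limma adjusted p = 0.0462), partly built in as at Fgf21.

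The H3K4me1 interval that spans the Gdf15 starts (chr8:70631840-70636926) had its highest folds in WT, at 15.0 in both livers. Its folds were 9.26 and 12.9 for Cpt2 KO, 11.8 and 9.49 for Ppara KO and 7.77 and 10.1 for DKO livers, all below WT. DKO differed from WT by −0.76 (SE 0.27, limma adjusted p = 0.154), Ppara-null from Ppara-intact by −0.41 (SE 0.19, limma adjusted p = 0.354) and Cpt2-null from Cpt2-intact by −0.35 (SE 0.19, limma adjusted p = 0.553). The peak over the starts themselves was at 8.62 in Ppara KO replicate 2 and 6.84 in DKO replicate 1, where another peak of the interval was higher. Summits of the highest peak over the gene lay 689 to 2228 bases before the upper start in all 8 livers, where those of H3K27ac lay 146 to 1286 bases past it.

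An interval inside the Gdf15 body (chr8:70631031-70631666) had H3K4me1 folds of 7.0 and 8.42 in WT, 4.14 in 1 Cpt2 KO liver and 3.50 in 1 Ppara KO liver, with no call in the other 4. The strongest H3K4me1 interval of the window lay nearest to Pgpep1, a peptidase gene (chr8:70644489-70653908), at 14.0 and 14.9 for WT, 11.0 and 13.3 for Cpt2 KO, 18.0 and 14.7 for Ppara KO and 10.6 and 11.1 for DKO livers. All Cpt2-null livers were below all Cpt2-intact livers there, by −0.42 (SE 0.17, limma adjusted p = 0.472). The share of all H3K4me1 intervals with such a split was not counted. H3K27ac near Pgpep1 (chr8:70644595-70653439) ranged from 13.2 to 31.2, highest in Ppara KO replicate 1. Its Ppara difference was 0.43 (SE 0.20, limma adjusted p = 0.216). Over 17 alternatives it ranged from 0.17 to 0.70 and passed in 1, without Ppara KO replicate 2 (0.0376). H3K9ac was called at 10 of 12 Gdf15 intervals in WT and 12 of 12 in Cpt2 KO, over 19906 and 24105 bases.

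Angptl8, whose product restrains lipoprotein lipase after feeding, had fewer bases under H3K27ac peaks in each liver that lacks Cpt2 than in each liver that has it. The gene (chr9:21835510-21837347) lies inside Dock6, so its bases are also bases of Dock6. The interval over its first part and the region before it (chr9:21829695-21836375) had folds of 14.9 and 25.0 for WT, 11.0 and 16.1 for Cpt2 KO, 13.8 and 14.9 for Ppara KO and 13.6 and 20.2 for DKO livers. Both Ppara KO livers lay just below both WT livers (14.86 against 14.95 at the closest), and every other pair of genotypes overlapped in fold. The log2 differences were −0.43 for Cpt2 (SE 0.19, limma adjusted p = 0.147) and −0.09 for Ppara (SE 0.19, limma adjusted p = 0.825). Cpt2 KO against WT gave −0.77 (SE 0.27, limma adjusted p = 0.0754). It passed in 3 of 17 alternatives: with a replicate block (0.0414), without WT replicate 1 (−1.04) and with the mean fold of overlapping peaks (−1.47, 0.0112). With that mean fold, Ppara KO against WT (−1.53, limma adjusted p = 0.0205) and DKO against WT (−1.17, limma adjusted p = 0.0175) passed as well.

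Livers with and without Cpt2 did not overlap in covered bases there. The share of all H3K27ac intervals with such a split was not counted. Peaks covered 6628 and 6681 bases of this interval for WT, 1367 and 2177 for Cpt2 KO, 3836 and 4930 for Ppara KO and 1337 and 3291 for DKO livers, so all Cpt2-null livers lay below all Cpt2-intact livers. In WT this was 1 unbroken peak in each liver, and in the others 2 to 7 separate peaks. The summit stayed in place, 135 to 187 bases past the start in all 8 livers.

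At the end of the gene (chr9:21836467-21838050), folds were 8.01 and 7.71 in WT and 6.60 and 6.06 in Ppara KO livers, with no call in the Cpt2 KO and DKO livers. Of the 40 H3K27ac intervals this was the only one called in all Cpt2-intact and no Cpt2-null liver, against 0.826% of all intervals; none had the reverse, against 1.95%. Its filled-in Cpt2 difference was −1.86 (SE 0.19, limma adjusted p = 0.00284; 21% of intervals in that fit passed), partly built in as above. H3K27ac covered 91.1 and 95.1% of the body in WT, 66.6 and 78.4% in Ppara KO, 39.9 and 42.0% in Cpt2 KO and 43.5 and 46.1% in DKO livers. TGATGCAAT lay under an H3K27ac peak in both WT livers and Ppara KO replicate 2 and outside one in the other 5 livers.

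Library measures moved with Cpt2 as well. The smallest peak width of the H3K27ac lists was 198 to 210 bases in Cpt2-intact and 217 to 223 in Cpt2-null livers. With that width as a covariate the Cpt2 difference at the Angptl8 start was −0.08. Since the width splits the Cpt2 states, that fit can hardly tell Cpt2 loss from width. Covered lengths of whole lists were 47.8, 47.1, 47.4 and 44.8 Mb in Cpt2-intact and 42.1, 44.6, 42.0 and 44.9 Mb in Cpt2-null livers. Their part in the narrower Angptl8 peaks was not tested.

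**Figure D4:**
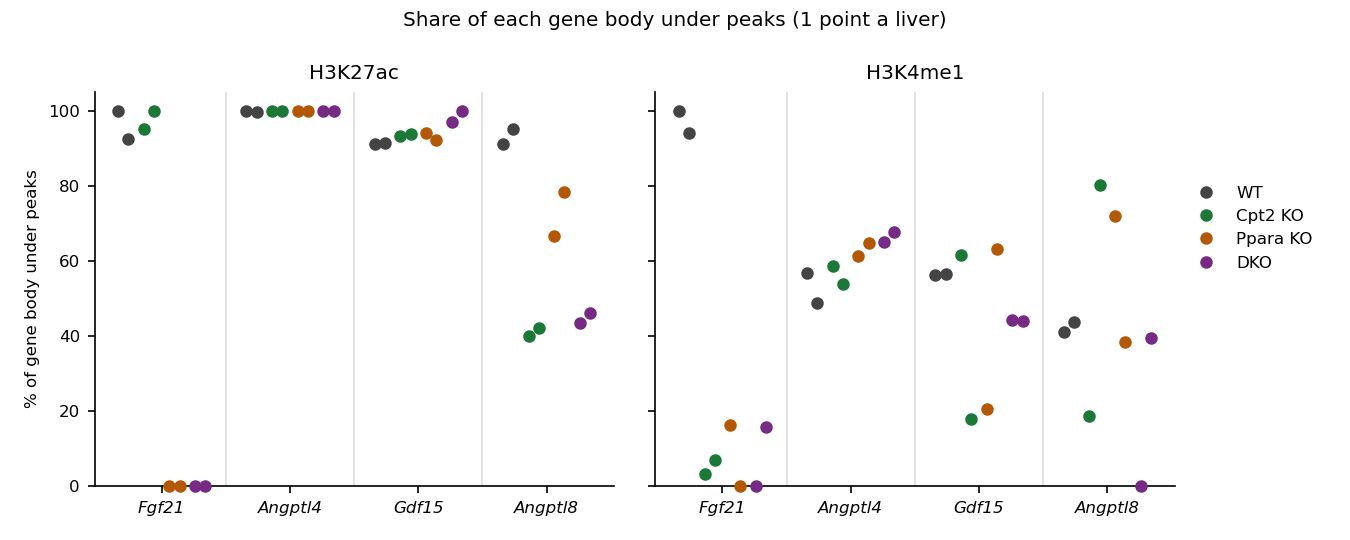
Share of each gene body under H3K27ac (left) and H3K4me1 (right) peaks, 1 point a liver, coloured by genotype. H3K27ac falls to 0% at Fgf21 in the Ppara-null livers and to 39.9 to 46.1% at Angptl8 in the Cpt2-null livers; H3K4me1 covers at least 94.1% of Fgf21 in WT and at most 16.4% elsewhere.

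H3K4me1 before the Angptl8 start (chr9:21829211-21835357) had folds of 10.5 and 12.0 for WT, 12.4 and 12.3 for Cpt2 KO, 8.42 and 11.6 for Ppara KO and 10.1 and 11.7 for DKO livers. Both Cpt2 KO livers lay just above all other livers, and the other genotypes overlapped. How many of all H3K4me1 intervals show such an order was not counted. The log2 differences were −0.18 for Ppara (SE 0.18, limma adjusted p = 0.685) and 0.14 for Cpt2 (SE 0.18, limma adjusted p = 0.813). No liver had an H3K4me1 peak over the start base or over the TGATGCAAT match. An H3K4me1 interval at the gene end (chr9:21836537-21838185) was called in 7 livers at 5.47 to 8.75 and not in DKO replicate 1, the list with the fewest covered bases (38.8 Mb).

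H3K9ac at Angptl8 was called at 11 of 11 intervals in WT and 9 of 11 in Cpt2 KO, over 8717 and 7949 bases. The 2 H3K9ac intervals over the gene covered 1292 and 1649 bases in WT and 947 and 1238 in Cpt2 KO. Farther into Dock6, a guanine nucleotide exchange factor gene, 2 short H3K27ac intervals (chr9:21844136-21844616 and chr9:21845158-21845477) were called in the WT livers alone, at 7.58 and 5.27 and at 5.67 and 4.17. Over the 4 genes, 5 of the 40 H3K27ac intervals were called in both WT and neither Cpt2 KO liver, against 6.64% of all intervals.

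**Figure D5:**
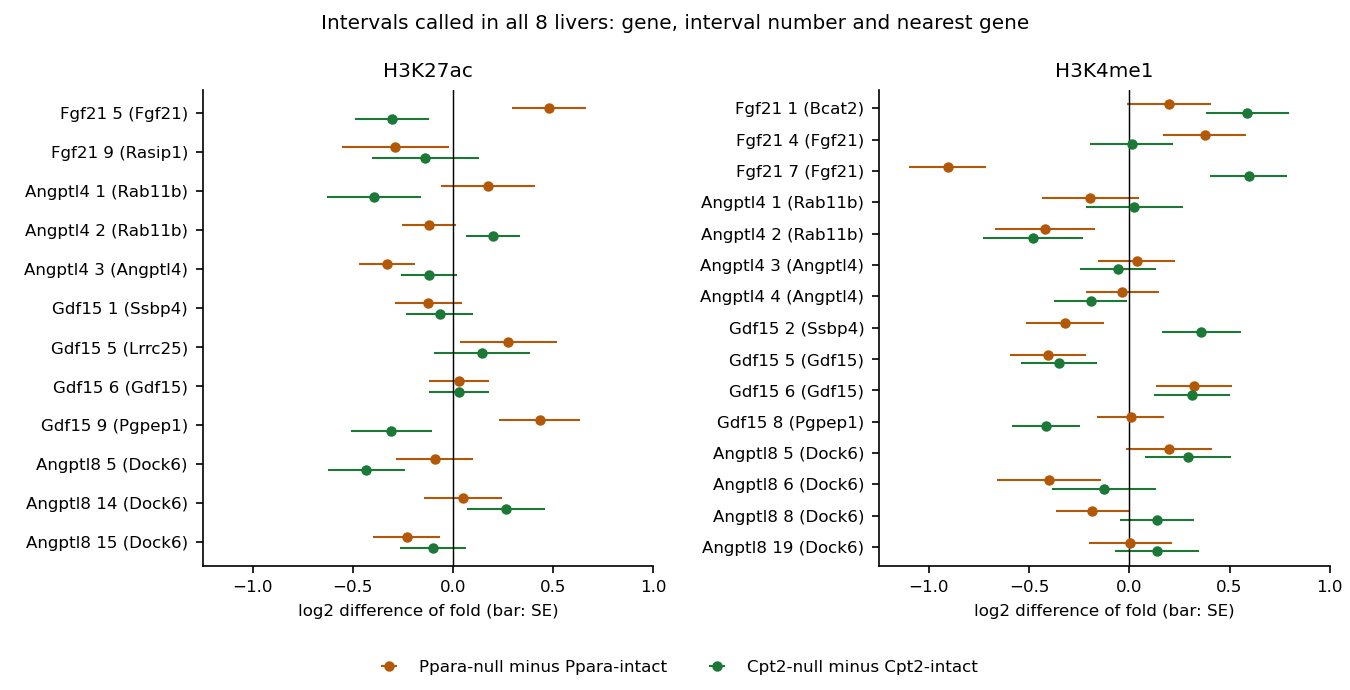
Log2 difference of fold, with its SE, at each interval of the 4 genes called in all 8 livers, for Ppara-null minus Ppara-intact and Cpt2-null minus Cpt2-intact livers; each line names the gene, interval number and nearest gene. H3K27ac values run from −0.43 to 0.48, and the lowest H3K4me1 value is −0.91 at Fgf21.

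Over all 4 genes, 12 H3K27ac and 15 H3K4me1 intervals were called in all 8 livers and entered limma with every other such interval. None of them passed adjusted p under 0.05 for either deletion, their interaction or any of 5 pairs of genotypes. In H3K27ac, 7.34% of all 18281 intervals tested passed for Ppara and 12.3% for Cpt2; 2 and 1 of the 12 had an unadjusted p under 0.05 in the limma fit. The Cpt2 calls were 896 higher and 1349 lower, and without centring of the libraries 3504 higher and 432 lower. Of the same 18281 intervals, 13.5% passed for Cpt2 KO, 6.42% for Ppara KO and 20.2% for DKO, each against the same WT livers, and for DKO 2.24% passed against Cpt2 KO and 0.00547% against Ppara KO. In H3K4me1, 0.128% passed for Ppara, 0% for Cpt2 and 0.133% for DKO against WT, and 2 and 3 of the 15 had an unadjusted p under 0.05. The H3K27ac differences of the 12 ranged from −0.33 to 0.48 for Ppara and from −0.43 to 0.27 for Cpt2, with SEs of 0.14 to 0.27. On simulated data of this size, 94% of H3K27ac and 82.5% of H3K4me1 intervals with a log2 change of 1 were recovered for the Ppara comparison.

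The profile of each gene's strongest interval over the 8 libraries was set beside that of every other gene with such an interval. The H3K27ac values of Angptl8 were most like those of Nr3c2 (Pearson r = 0.99), a mineralocorticoid receptor gene, and those of Angptl4 were most like those of Washc1 (0.97). Gdf15 was most like Sptan1 (0.95), a spectrin gene, and the Rasip1 interval of the Fgf21 window was most like Ppp1r18 (0.90). In H3K4me1 the nearest were Pear1 for Fgf21 (0.99), Gtse1 for Angptl4 (0.95), Fat1 for Gdf15 (0.98) and Fam104a for Angptl8 (0.96). The H3K4me1 interval used for Gdf15 lay nearest to Pgpep1, and those used for Angptl8 in both marks lay nearest to Dock6. These are the highest of 7002 to 9358 values over the same 8 libraries, and they are given as a description.

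Genes of the same pathways were read from the strongest interval within 20000 bases of each. Of 12 receptors and partners, 8 had an H3K27ac interval called in all 8 livers, and Fgfr1, Gfral, Ret and Lpl did not. None of the 8 passed for Ppara (median log2 −0.25, against −0.01 over all intervals). For Cpt2, 2 of 8 passed and were lower: Klb, the FGF21 co-receptor (−0.72, limma adjusted p = 0.0312), and Fgfr3 (−0.89, 0.0285); 12.3% of all intervals tested passed, and the list's median was 0.0011. Klb folds were 11.4 and 19.6 for WT, 13.6 and 11.5 for Cpt2 KO, 11.4 and 19.96 for Ppara KO and 9.26 and 10.0 for DKO livers, so Cpt2-null and Cpt2-intact livers overlapped. They overlapped at Fgfr3 too, with folds of 6.02 and 14.7 for Ppara KO and 7.68 and 9.6 for DKO livers. Fgfr4, the main FGF receptor of hepatocytes, did not pass (−0.07, limma adjusted p = 0.776).

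Of 20 other liver-secreted factors, all with such an H3K27ac interval, 2 rose and 1 fell without Ppara, where 7.34% of all intervals tested passed. Those that rose were Igfbp1, an IGF-binding protein (0.66, limma adjusted p = 0.0469), and Orm1, an acute-phase protein (0.58, 0.0434). The Hamp window fell by 0.69 (0.0286), at an interval nearest to Usf2. For Cpt2, 1 of 20 passed, against 12.3% of all intervals tested: the Angptl6 window, at an interval nearest to Shfl, fell by 0.74 (limma adjusted p = 0.00892), with folds of 25.3 and 33.7 for WT, 17.6 and 14.2 for Cpt2 KO, 17.0 and 17.6 for Ppara KO and 14.1 and 19.7 for DKO livers. Of 14 known regulators of the 4 genes, Ppara itself rose without Ppara (0.48, 0.0409; −0.12 with the mean fold) and Thrb, a thyroid hormone receptor gene, fell by 0.60 (0.0283), while Mlxipl, which encodes the carbohydrate-responsive factor ChREBP, fell by 0.81 without Cpt2 (0.0251).

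The Angptl6 call held in all 8 fits that left out 1 library. In that window the WT livers lay above all others, and the Ppara KO livers lay inside the range of the Cpt2-null livers. Each of the other 8 calls was lost in 4 to 7 of those 8 fits, with a limma adjusted p of up to 0.20, and each of the 8 libraries ended some of them. All 4 Cpt2 calls were lost without centring of the libraries (limma adjusted p from 0.0681 for Fgfr3 to 0.146 for Klb). They were also lost with smallest peak width as a covariate (limma adjusted p from 0.688 for Fgfr3 to 0.868 for Klb). That covariate splits the Cpt2 states, so a fit with it could hardly keep a Cpt2 call. Of the 5 Ppara calls, Hamp alone held without centring (0.0290) and Thrb alone with that covariate (0.0284). In H3K4me1 no gene of the 3 lists passed for either deletion.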

How the data were processed

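Livers of 4 genotypes were placed in groups by their sample titles. Per the submitters' processing notes, reads were handled with BWA and MACS2 2.1.0 on mm10; settings are not given in the sources used here. The authors deposited a peak list per library, with each peak's fold enrichment (a ratio), its −log10 p and −log10 q and its summit, and consensus intervals per mark with positions; replicates were not pooled. The list of H3K27ac Ppara KO replicate 2 carries another build word, and 44454 of its 44454 peaks matched intervals listed under mm10. Folds were compared between the libraries of a mark, each centred on its median log2 fold, which assumes like libraries.

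Intervals called in all 8 libraries were fitted with limma 3.58.1 (lmFit, eBayes with trend) in R 4.3.3, with Benjamini-Hochberg adjustment over all of them and a threshold of 0.05. Tables and figures used Python 3.11.15, pandas 2.3.3 and matplotlib 3.10.9. The script was tested on simulated data. Replicates are separate livers by their titles; whether they are separate animals is not stated in words, and p-values measure the spread between these samples. Given in full were each gene's strongest interval called in all 8 livers, the interval over its start or body, and any interval past the threshold or called in one state of a gene only; other intervals named were chosen after their values were seen. The 4 genes and the lists were chosen with earlier results of these data known; 1 gene of the lists is not reported here. Alternatives were no centring, quantile normalization, mean fold, −log10 q of at least 10, overlap of at least 50%, filling in uncalled libraries (at least 4 called), a 5000-base window, no trend, peak width as covariate, a replicate block and leaving out each library.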

Additional observations from a re-analysis of the deposited data

How the results depend on the processing

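Of the 12 H3K27ac and 15 H3K4me1 intervals called in all 8 livers, 0 passed in any comparison with the settings reported. Filling in uncalled libraries adds intervals not called in all 8 livers, some of which entered through the group where they were called. With these, H3K27ac counts were 4 for Ppara and for DKO against WT, and 1 for Cpt2, Cpt2 KO or Ppara KO against WT, and DKO against Cpt2 KO or Ppara KO. Of the 4 Ppara calls, the interval over Fgf21 was lower in Ppara-null livers (−3.08). The others, 1.17 and 1.25 in the Fgf21 window and 1.22 upstream of Gdf15, were higher. For H3K4me1, Ppara gave 2, both lower. With the mean fold, 1 H3K27ac interval passed for each genotype against WT. The replicate block gave 1 for Cpt2 KO against WT in H3K27ac and changed no other count, and it ended the Igfbp1 call (limma adjusted p = 0.0526). Deviations of same-numbered livers correlated from −0.49 to 0.17, which cannot tell whether such livers were handled together. In H3K4me1, the lists of Cpt2 KO replicate 1, Ppara KO replicate 2 and both DKO livers covered 38.8 to 46.0 Mb, and the other lists 52.5 to 53.5 Mb. The part of this split in the H3K4me1 differences was not tested. Leaving out 1 library gave 0 to 1 calls for Ppara in both marks and, in H3K27ac, for Cpt2 KO or Ppara KO against WT.

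For patterns of calls, leaving out 1 library gave 1 to 2 intervals for Cpt2-intact only (H3K27ac) and Ppara-intact only (H3K4me1), and 0 to 1 for Ppara-null only in both marks. With a 5000-base window the H3K4me1 Ppara-intact count was 0, and with −log10 q of at least 10 the Ppara-null count was 1.

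The differences at each gene's strongest interval that changed sign passed in no setting. That interval lay nearest to Pgpep1 for Gdf15 in H3K4me1, and nearest to Dock6 for Angptl8 in both marks. For the Cpt2 difference in H3K27ac, the Fgf21 window was at 0.13 without centring and 0.77 with width (−0.41 to 0.13 leaving out a library), and Angptl4 at 0.15, 0.030 with the mean fold and 0.37 with width. Without centring, the median Cpt2 difference over all H3K27ac intervals was 0.25. Gdf15 in H3K27ac was at −0.17 (mean fold) and −0.013 (filled in) for Ppara, −0.092 to 0.15 for Ppara and −0.091 to 0.15 for Cpt2 leaving out a library, and −0.13 for the interaction with the mean fold, against 1.08 with the highest fold; Angptl8 for Ppara was at −0.26 to 0.081. In H3K4me1, Angptl4 was at −0.013 with width and −0.053 to 0.12 for Ppara, and 0.22 with the mean fold and −0.15 to 0.030 for Cpt2; Gdf15 for Ppara was at −0.0027 filled in and −0.070 to 0.082; Angptl8 for Cpt2 was at −0.056 with the mean fold. The cause was not tested, and unknown read depth limits what a missing call means.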
